A study of Mus musculus with 9 samples.

Results

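The clustered histone genes are the 67 protein-coding genes whose symbol in GENCODE vM21, on the mouse build GRCm38, starts with Hist1h, Hist2h, Hist3h or Hist4h. All 67 were found by Ensembl identifier among the 55335 genes of the deposited table. They were measured by RNA-seq in the livers of 9 mice, 3 in each of 3 conception groups. All mice were B6D2F2, 20 weeks old and fasted for 4 h, and the study's methods give them as male and chow-fed. The NC group was conceived naturally. For the IVF group, 2-cell embryos made by fertilization in vitro were transferred fresh into pseudopregnant ICR females, and for the FET group such embryos were slowly frozen and thawed before transfer. NC embryos did not develop in ICR recipients, so fertilization in vitro, transfer and recipient strain cannot be told apart against NC. The labels give the mice as numbers 1, 5 and 6 in NC and 2, 3 and 4 in both IVF and FET. Nothing in the labels names a litter, so the p-values given here measure the spread between these mice only.

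Histones H2A, H2B, H3 and H4 form the core of the nucleosome, around which DNA is wound, and H1 binds the linker DNA between nucleosomes. Most genes of the clusters are transcribed in S phase, when newly copied DNA needs new histones. Their mRNAs usually end just past a conserved stem-loop, which the stem-loop binding protein recognises, and carry no poly(A) tail. Some members also give longer or spliced mRNAs with a tail in cells that have left the cell cycle. Most hepatocytes of an adult liver do not divide, and replacement histones, whose genes lie elsewhere in the genome and whose mRNAs carry a tail, supply chromatin outside S phase.

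The libraries differed in depth and in composition. Levels were given as FPKM, in which fragments are scaled by the length of the gene and by the mapped fragments of the library. In genes with few fragments, part of the FPKM values fell on steps of single fragments. The depth was estimated from the spacing of these steps, with 37.3% to 44.9% of low values per library on a step. It was 6610000 to 13310000 fragments in NC, 3900000 to 8420000 in IVF and 2020000 to 2930000 in FET. Every FET library was thus smaller than every other one, and depth and the FET group cannot be told apart. Ribosomal RNA, with AY036118 and Gm23935 counted to it and mitochondrial ribosomal RNA left out, took 26.5%, 3.49% and 5.03% of the summed FPKM in NC mice 1, 5 and 6, 61.9%, 19.3% and 18.1% in IVF mice 2, 3 and 4, and 41.8%, 29.0% and 31.0% in FET mice 2, 3 and 4. Mitochondrial ribosomal RNA took a further 1.02% to 8.46% in NC, 2.59% to 20.4% in IVF and 4.09% to 6.69% in FET. A share of summed FPKM is not a share of fragments. With FPKM weighted by gene length, the share without mitochondrial ribosomal RNA was 2.37% to 22.3% in NC, 12.0% to 54.5% in IVF and 23.1% to 34.1% in FET. The sources used here do not state whether poly(A) RNA was selected, whether ribosomal RNA was depleted or whether the libraries keep the strand. In the sheet numbers of the labels, NC mice 5 and 6 lie apart from the other 7 mice, and what this number stands for is not stated.

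The genes lie in 4 places in GRCm38. The Hist1 cluster holds 54 genes on chromosome 13 (chr13:21715763-23934851), Hist2 holds 10 on chromosome 3 (chr3:96219865-96270132), Hist3 holds 2 on chromosome 11 (chr11:58948920-58956830) and Hist4 is 1 gene on chromosome 6 (chr6:136801553-136804415). By family there are 6 H1, 18 H2A, 18 H2B, 12 H3 and 13 H4 genes. The stem-loop is shown first because it is the feature by which these mRNAs can end without a tail. A stem-loop of the histone type was found in the annotated transcripts of 46 of the 67 genes (68.7%), against 70 of 21951 protein-coding genes with transcripts (0.319%). The sequences below are from the GENCODE vM21 transcripts of the 5 genes with a mean of at least 1 FPKM that hold it. They are written 5′ to 3′, with the 16 bases of the stem-loop in capitals and 5 bases on either side.
Hist2h2aa1 (H2A): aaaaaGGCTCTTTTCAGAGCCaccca
Hist1h2bg (H2B): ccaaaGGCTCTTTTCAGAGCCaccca
Hist1h4h (H4): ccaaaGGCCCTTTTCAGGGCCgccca
Hist1h1c (H1): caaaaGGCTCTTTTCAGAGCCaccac
Hist1h4i (H4): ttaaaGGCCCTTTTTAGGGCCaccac

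The form in Hist2h2aa1, Hist1h2bg and Hist1h1c, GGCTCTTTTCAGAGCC, stood in 26 genes of the H1, H2A, H2B and H3 families. The form in Hist1h4h, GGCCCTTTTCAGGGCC, stood in 7 genes, all of them H4, and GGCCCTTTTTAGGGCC stood in Hist1h4i and Hist2h4 alone. Hist1h2bc, the gene with the highest mean level, had no match in its annotated transcript, which has 2 exons and 1156 bases, 742 of them past the stop codon. The gene models differ in where they end, and FPKM depend on that through the gene length. Taken from 1 transcript per gene, in 15 genes the model held the coding part only, in 22 it ended within 100 bases of the stem-loop, in 23 it ran on further, and in 7 no stem-loop was found, among them Hist1h2bp, which has it in another transcript. Of the 15 genes with a coding part only, 0 were above 0 in 5 or more mice, against 3 of 22, 11 of 23 and 3 of 7 in the other classes.

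In these adult livers most clustered histone genes were low, and 1 gene of the H2B family, Hist1h2bc, made up 26.2% to 71.3% of their summed FPKM in each mouse. Of the 67 genes, 9 were listed at 0 in all 9 mice, 41 were above 0 in 1 to 4 mice and 17 in 5 or more. Hist1h2bc and Hist1h2bg were the only genes above 0 in all 9 mice. Only 6 genes reached a mean of 1 FPKM, the filter set for the tests. The H2B genes held 65.8% of the summed mean FPKM, the H2A genes 15.5%, H4 9.23%, H3 6.16% and H1 3.32%. The H2A share rests on IVF mouse 3, without which it was 5.70%. This lay below the 10.6% of H4 and the 6.88% of H3, while H2B then held 73.1%. Counted per library, 19, 29 and 39 of the 67 genes were above 0 in NC mice 1, 5 and 6, 30, 21 and 24 in IVF mice 2, 3 and 4, and 6, 18 and 13 in FET mice 2, 3 and 4. The estimated depth allowed 256 to 754 fragments on all clustered histone genes together in an NC library, 80.2 to 245 in an IVF library and 37.2 to 153 in a FET library. The part of depth in these counts of genes was not tested.

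**Figure D1:**
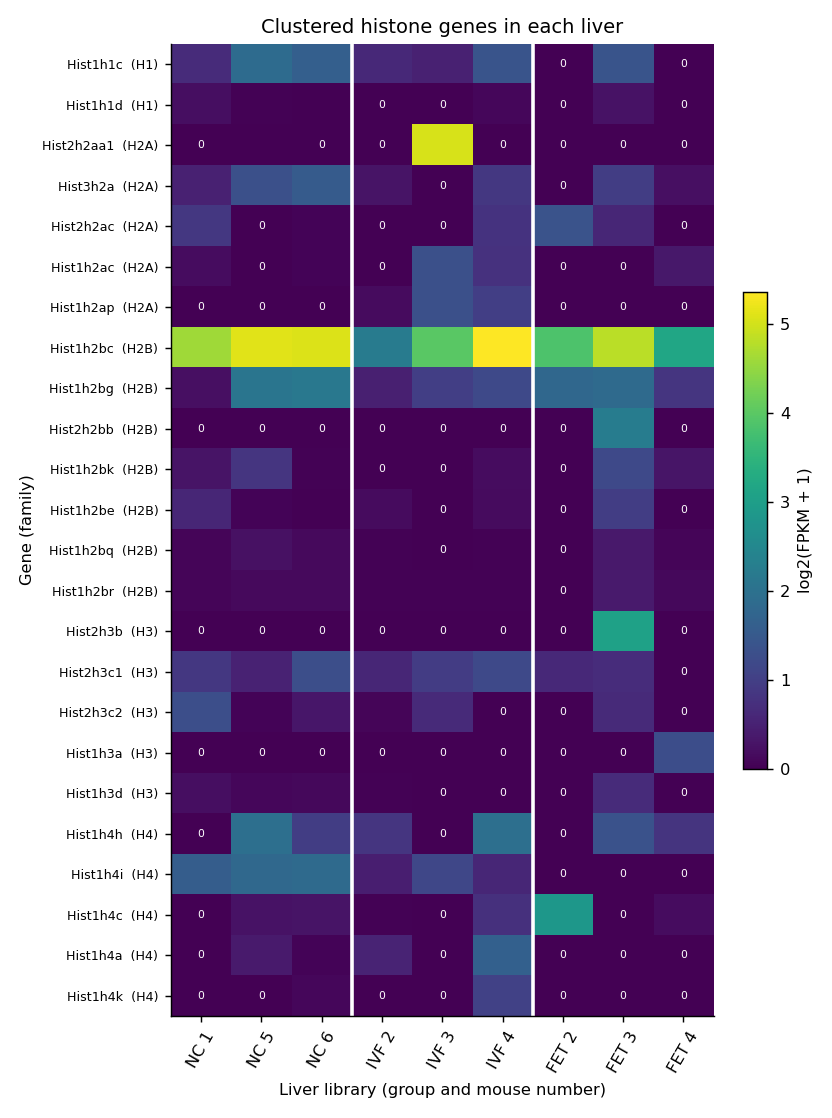
Heatmap of log2(FPKM + 1) in each of the 9 liver libraries for the 24 clustered histone genes that were above 0 in 5 or more mice or reached 1 FPKM in a mouse, ordered by family and mean; a 0 marks a gene listed at 0. Hist1h2bc is the highest of these genes in every library but IVF mouse 3, where Hist2h2aa1 is at 32.0 against 15.0 FPKM, while Hist2h2aa1, Hist2h3b, Hist2h2bb and Hist1h4c are high in 1 library each.

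Hist1h2bc (ENSMUSG00000018102, chr13:23684199-23692908, plus strand) encodes a core histone H2B. Its FPKM was 23.2, 34.0 and 33.0 in NC mice 1, 5 and 6, 3.70, 15.0 and 40.3 in IVF mice 2, 3 and 4, and 13.5, 27.3 and 7.99 in FET mice 2, 3 and 4. The lowest and the highest value both came from the IVF group, and all 3 groups overlapped. With a mean of 22.0 FPKM it ranked number 565 among 21886 nuclear protein-coding genes. The group means were 30.1 ± 5.94 (SD, n = 3) in NC, 19.7 ± 18.7 (SD, n = 3) in IVF and 16.3 ± 9.93 (SD, n = 3) in FET. On the log2(FPKM + 1) scale the difference was -0.99 for FET against NC (standard error 0.95, limma adjusted p = 0.724), -1.07 for IVF against NC (standard error 0.95, limma adjusted p = 1) and 0.08 for FET against IVF (standard error 0.95, limma adjusted p = 1). None of these exceeded the spread between mice, and each depended on single mice. FET against NC was -0.60 without FET mouse 4, IVF against NC was -0.25 without IVF mouse 2 and -1.82 without IVF mouse 4, and FET against IVF was -0.73 and 0.83 without these same 2 mice. Of the 100-base stretches of this transcript, 25.4% also occur in other genes, mostly in H2B copies, so a share of its fragments could have been assigned elsewhere.

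Hist1h2bc and the H2A gene Hist1h2ac stand head to head, with 250 bases between them. The RefSeq promoter window of Hist1h2ac (GRCm38.p6, chr13:23683910-23684209, minus strand) covers that whole interval and is printed because 1 stretch of DNA here separates the highest clustered histone gene from a low one. Hist1h2bc itself was named in no RefSeq promoter entry. Capitals mark matches on either strand. The letters searched were those of the octamer ATTTGCAT, known from H2B promoters, of the CCAAT box and of the TATA box, TATAAA, and no 2 of these overlap in the windows shown.
Hist1h2ac promoter: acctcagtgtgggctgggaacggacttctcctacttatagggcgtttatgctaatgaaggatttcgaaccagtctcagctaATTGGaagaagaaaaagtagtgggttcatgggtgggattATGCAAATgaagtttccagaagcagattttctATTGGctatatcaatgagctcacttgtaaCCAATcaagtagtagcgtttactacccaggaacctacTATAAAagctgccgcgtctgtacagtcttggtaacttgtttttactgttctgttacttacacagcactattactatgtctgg

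Across this interval Hist1h2bc had a mean of 22.0 FPKM and Hist1h2ac a mean of 0.290. Hist1h2ac was listed at 0 in 4 of the 9 mice and reached 1.46 FPKM in IVF mouse 3 at most. Its annotated transcript runs on for 2010 bases past the stem-loop, which lowers the FPKM that a given number of fragments yields. The fragments differed as well: over the 9 mice Hist1h2ac held an estimated 28.4, against 1597 for Hist1h2bc. The same arrangement recurs through the cluster. There were 13 head-to-head pairs within 1000 bases of each other, and Hist1h2ae and Hist1h2bg are another, with 175 bases between them and means of 0.170 and 1.70 FPKM. The promoter window of Hist1h2bg (chr13:23571150-23571449, plus strand) is shown for comparison, with the same letters in capitals.
Hist1h2bg promoter: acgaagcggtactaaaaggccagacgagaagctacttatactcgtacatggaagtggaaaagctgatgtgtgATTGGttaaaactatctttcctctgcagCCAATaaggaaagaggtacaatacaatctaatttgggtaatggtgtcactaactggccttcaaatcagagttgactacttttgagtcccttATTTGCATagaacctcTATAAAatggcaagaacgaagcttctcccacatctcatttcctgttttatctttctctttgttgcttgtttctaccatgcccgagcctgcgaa

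Promoter windows of 300 bases were matched for 62 of the 67 genes. The octamer stood in 14 of them (22.6%) against 1.74% of all 32851 promoters in the table, the CCAAT box in 53 (85.5%) against 37.4%, and TATAAA in 35 (56.5%) against 13.6%. Among the 16 H2B genes with a window, 7 held the octamer, 16 a CCAAT box and 8 TATAAA. Windows of head-to-head genes can overlap, so 1 match can count for both. Such matches are letters in a window and were not related to the levels measured here.

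Hist1h2bg (ENSMUSG00000058385, chr13:23571396-23572013), also a core H2B gene, was the only other one above 0 in every library, although its value in NC mouse 1 stood for an estimated 0.674 fragments and 44.9% of its 100-base stretches occur in other genes. Its FPKM was 0.165, 3.25 and 3.41 in NC mice 1, 5 and 6, 0.391, 0.981 and 1.27 in IVF mice 2, 3 and 4, and 2.45, 2.63 and 0.762 in FET mice 2, 3 and 4. NC mouse 1 was the lowest of all 9, so the NC group spanned the range of the others. The difference was 0.0051 for FET against NC (standard error 0.61, limma adjusted p = 1) and 0.61 for FET against IVF (standard error 0.61, limma adjusted p = 1) on the log2(FPKM + 1) scale. For IVF against NC it was -0.60 (standard error 0.61, limma adjusted p = 1), larger in size without NC mouse 1 and smaller without NC mouse 5. Without NC mice 5 and 6, which left NC mouse 1 alone, this difference was 0.66 and FET against NC was 1.27, while the latter was -0.63 without NC mouse 1.

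Hist1h1c (ENSMUSG00000036181, chr13:23738808-23740367) encodes a linker histone H1 and was the only H1 gene with a mean of at least 1 FPKM. It had 0.590, 2.67 and 2.07 FPKM in NC mice 1, 5 and 6, 0.541, 0.417 and 1.64 in IVF mice 2, 3 and 4, and 0, 1.62 and 0 in FET mice 2, 3 and 4. The 2 highest values belonged to NC mice 5 and 6, and the 2 zeros to FET. It too reached a mean of 1 FPKM through NC alone. Its difference was -0.92 for FET against NC (standard error 0.59, limma adjusted p = 0.548) and -0.55 for IVF against NC (standard error 0.59, limma adjusted p = 1), and the groups overlapped. Without NC mice 5 and 6 these differences were -0.21 and 0.17. With single mice left out FET against NC lay between -1.39 (without FET mouse 3) and -0.68 (without NC mouse 5), and IVF against NC between -0.91 (without NC mouse 1) and -0.30 (without NC mouse 5). Hist1h1c has the longest transcript of the 6 genes, 1560 bases, and only 5.07% of its 100-base stretches occur elsewhere.

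Of the H4 genes, which encode the most conserved core histone, Hist1h4h and Hist1h4i reached a mean of 1 FPKM. Hist1h4h (ENSMUSG00000060981, chr13:23531050-23531519) had 0, 2.90 and 0.972 FPKM in NC mice 1, 5 and 6, 0.771, 0 and 2.92 in IVF mice 2, 3 and 4, and 0, 1.54 and 0.738 in FET mice 2, 3 and 4. Each group held 1 mouse at 0, and the differences lay between -0.27 and -0.049 with a standard error of 0.62 (limma adjusted p from 0.904 to 1). Their direction was not stable: against NC they were 0.073 for FET and 0.15 for IVF after rescaling to nuclear protein-coding genes, and 0.71 and 0.93 without NC mice 5 and 6, and FET against IVF was 0.30 without IVF mouse 4.

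Hist1h4i (ENSMUSG00000060639, chr13:22040636-22041362, minus strand) was the gene whose groups lay apart. It had 1.99, 2.53 and 2.62 FPKM in NC mice 1, 5 and 6, 0.358, 1.20 and 0.502 in IVF mice 2, 3 and 4, and was listed at 0 in FET mice 2, 3 and 4. No value of one group reached into another: NC was highest, IVF intermediate and FET at 0. The gene reached the mean of 1 FPKM through NC alone, the group in which it was high, so the filter favoured a difference from NC and its tests against NC are given as a description. Its difference on the log2(FPKM + 1) scale was -1.75 for FET against NC (standard error 0.57, limma unadjusted p = 0.00342, adjusted p = 0.185), -1.03 for IVF against NC (standard error 0.57, limma adjusted p = 1) and -0.72 for FET against IVF (standard error 0.57, limma adjusted p = 1). None passed the threshold of 0.05, and the first size depends on the pseudocount because FET stands at 0. The other settings gave an adjusted p between 0.0881 and 1 for FET against NC, the highest without NC mice 5 and 6. With the mouse number as a replicate block the FET and IVF difference stayed at -0.72 (limma adjusted p = 1).

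The fragments behind these values were few. In NC mice the FPKM of Hist1h4i stood for an estimated 9.57 to 25.3 fragments, in IVF mice for 1.42 to 3.92. At the NC mean of 2.38 FPKM, the 3 FET libraries would be expected to hold 3.49, 4.88 and 5.07 fragments, and 3 fragments in them correspond to 1.41 to 2.04 FPKM. No fold is given against a group listed at 0, and the part of depth in the FET zeros was not tested. These estimates cover counting error only.

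**Figure D2:**
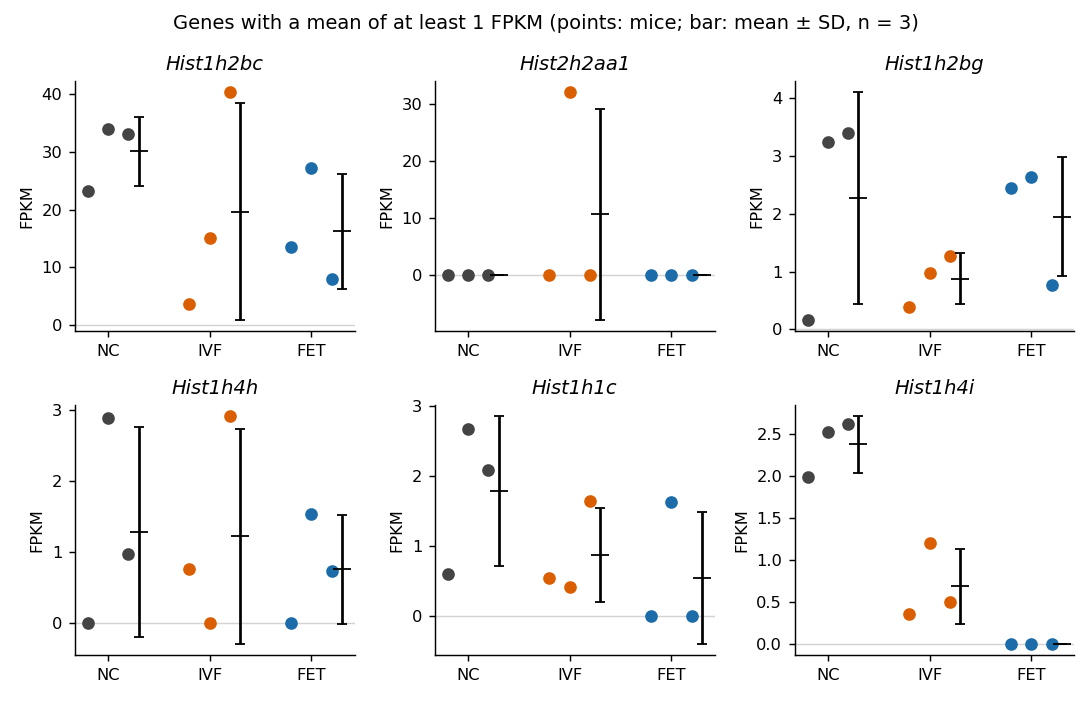
FPKM of the 6 clustered histone genes with a mean of at least 1 FPKM, with 1 panel per gene, points for single mice and a bar for the mean ± SD (n = 3). The groups do not overlap for Hist1h4i (NC 1.99 to 2.62, IVF 0.358 to 1.20, FET 0), and Hist2h2aa1 rests on 1 IVF mouse at 32.0.

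Hist2h2aa1 (ENSMUSG00000064220, chr3:96245497-96246082, plus strand), a core H2A gene, passed the filter through 1 library. It was at 32.0 FPKM in IVF mouse 3 and 0.0087 in NC mouse 5, and it was listed at 0 in the other 7 mice. Its difference was 1.68 for IVF against NC (standard error 0.76, limma unadjusted p = 0.0317, adjusted p = 1) and -1.68 for FET against IVF (standard error 0.76, limma unadjusted p = 0.0313, adjusted p = 1), and without IVF mouse 3 the first was -0.0041. The gene is 1 of a duplicated pair. Its copy, Hist2h2aa2, was listed at 0 in every mouse. On either strand, 100% of the 100-base stretches of Hist2h2aa1 occur in other genes, among them Gm20633, which overlaps it at the same place.

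Several annotated genes overlap the exons of these 2 copies, and some libraries listed FPKM under them. Gm20632, Gm20633 and Gm20634 extend beyond the copies, so their FPKM need not come from the shared bases, whereas Gm47311 and Gm47313 lie wholly inside them. Gm20632, an antisense gene of 2427 exonic bases that covers the 528 of Hist2h2aa2, had 0, 13.5 and 12.7 FPKM in NC mice 1, 5 and 6, 1.27, 4.23 and 0 in IVF mice 2, 3 and 4, and 6.84, 7.48 and 0 in FET mice 2, 3 and 4. Gm47311, an opposite-strand entry of 138 bases annotated as a microRNA inside Hist2h2aa2, had 23.3 FPKM in IVF mouse 2, 64.4 in IVF mouse 3, 77.9 in FET mouse 2 and 98.7 in FET mouse 3, against at most 0.275 in the other 5. Gm20634, which shares 529 of its 2956 exonic bases with Hist2h2aa1 on the same strand, had 11.6 FPKM in NC mouse 5 and 7.28 in IVF mouse 3. Gm20633, an antisense gene that covers Hist2h2aa1 whole, had 7.001 FPKM in IVF mouse 3 and at most 0.031 in the others, so it was high in the same single library as Hist2h2aa1, with an estimated 89.2 fragments there against 84.3. Thus 6 of the 9 libraries had more than 1 FPKM under a gene that overlaps the duplicated H2A copies, while Hist2h2aa1 itself passed 1 FPKM in IVF mouse 3 alone. Without the strand, fragments of a gene and of its antisense partner cannot be told apart. The same fragments can be listed under more than 1 overlapping gene, so these FPKM are not separate signals. How fragments were assigned among overlapping genes was not tested.

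**Figure D3:**
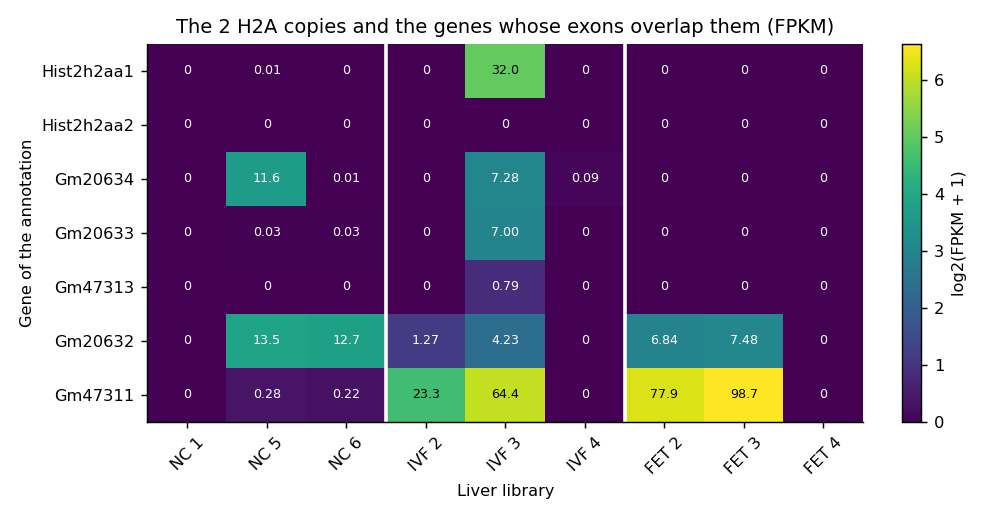
Heatmap of log2(FPKM + 1), with the FPKM printed in each cell, for the 2 H2A copies Hist2h2aa1 and Hist2h2aa2 and the 5 annotated genes whose exons overlap theirs, in each of the 9 libraries. Hist2h2aa1 is high in IVF mouse 3 only, whereas Gm20632 or Gm47311 is above 1 FPKM in NC mice 5 and 6, IVF mice 2 and 3 and FET mice 2 and 3.

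Some genes had a high value in 1 library each. Hist2h3b (H3) had 7.42 FPKM and Hist2h2bb (H2B) 3.80 FPKM in FET mouse 3 and were listed at 0 in the other 8 mice. Both lie whole inside the antisense gene Gm20628, which had 1.58 FPKM in FET mouse 3 and at most 0.225 elsewhere. Gm42743, which shares 226 bases with Hist2h2bb on the same strand, had 0.958 FPKM in FET mouse 3, but also 0.659 in NC mouse 1 and 1.57 in FET mouse 4. Hist1h4c (H4) had 6.14 FPKM in FET mouse 2 and at most 0.676 in any other mouse. The estimated depth makes the values of Hist2h3b, Hist2h2bb and Hist1h4c 10.2, 4.08 and 10.2 fragments. In FET mouse 3 it gives 14.3 fragments for Gm20628 and 4.08 for Gm42743. The same fragments thus appear to be listed under more than 1 overlapping entry, so these entries are not separate signals. Counted over the 67 genes, 38 had at least 50% of their summed FPKM in a single mouse.

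The remaining genes above 0 in 5 or more mice all stayed under a mean of 1 FPKM. They were the H1 gene Hist1h1d, the H2A genes Hist3h2a, Hist2h2ac and Hist1h2ac, the H2B genes Hist1h2bk, Hist1h2be, Hist1h2bq and Hist1h2br, the H3 genes Hist2h3c1, Hist2h3c2 and Hist1h3d, and the H4 gene Hist1h4c. Hist2h3c1 was above 0 in 8 mice, with a highest value of 1.44 FPKM in NC mouse 6. It lies whole inside Gm20634. Hist3h2a was above 0 in 7 mice and reached 1.92 FPKM in NC mouse 6, and it shares 708 bases with Trim17 on the same strand. As many as 61 of the 67 genes shared at least one 100-base stretch with another gene, and 28 shared at least 50% of theirs. These counts take in both strands and genes that overlap at the same place, such as Gm20634 for Hist2h3c1 and Trim17 for Hist3h2a. They therefore do not measure near-identical copies alone. The split of signal among copies and overlapping genes is uncertain.

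The comparison of the conception groups gave no call among the clustered histone genes. In FET against NC, 0 of the 6 tested genes passed (limma, adjusted p under 0.05), while 0.237% of all 6755 genes tested did, and at an unadjusted p under 0.05 it was 1 of 6, Hist1h4i, against 12% of all genes. In IVF against NC it was 0 of 6 against 0.0592% of all genes, with Hist2h2aa1 under 0.05 unadjusted, as were 4.07% of all genes. In FET against IVF it was 0 of 6 against 0.0888%, again with Hist2h2aa1 under 0.05 unadjusted, as were 4.01% of all genes. The median difference of the 6 genes was -0.60, -0.57 and -0.30 in the 3 comparisons, against -0.46, -0.25 and -0.20 over all genes tested. With single mice left out they ranged from -0.99 (without FET mouse 3) to -0.34 (without NC mouse 5), from -1.01 (without NC mouse 1) to -0.30 (without NC mouse 5) and from -0.63 (without FET mouse 3) to 0.10 (without IVF mouse 4), and without NC mice 5 and 6 the medians against NC were -0.10 for FET and 0.42 for IVF. These medians support no direction: Hist2h2aa1 passed the filter through its 1 high library and Hist1h4i and Hist1h1c through NC, which lowers the medians against NC, and each group serves in 2 comparisons. With FPKM rescaled so that the nuclear protein-coding genes have the same sum in each library, the medians were -0.20, -0.36 and -0.28, against -0.06, -0.07 and 0.02 over all genes tested, and 0 of 6 passed in each comparison.

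Hist1h4i, which passed the filter through NC, was the only one of the 6 whose groups did not overlap in the deposited values. FET lay wholly below NC in 17.1% of all genes tested, IVF below NC in 5.46% and FET below IVF in 2.56%, and the first group lay wholly above the second in 1.98%, 0.77% and 1.27%. After the rescaling Hist1h4i still lay apart in all 3 comparisons, where the shares of all genes were 11.5%, 11.3% and 6.01%. On that scale Hist1h2bc also lay apart between IVF and NC, with 10.9, 15.8 and 20.1 in IVF mice 2, 3 and 4 against 28.5, 28.3 and 24.2 in NC mice 1, 5 and 6. The rescaled difference of Hist1h2bc was -0.79 (standard error 0.33, limma unadjusted p = 0.0355, adjusted p = 0.887). Hist1h2bg lay higher in FET than in IVF after the rescaling, as 6.72% of all genes did, against 9.99% for FET above NC and 4.87% for IVF above NC, where no histone gene was among them.

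The clustered histone genes were next set beside the ribosomal RNA share, since both kinds of RNA can lack a tail. Nearly all of the share came from 3 entries: AY036118, Gm23935 and CT010467.1. The last is annotated as ribosomal RNA and AY036118 lies within its span on chromosome 17. Gm23935 is annotated as a microRNA on chromosome 16 and was counted with them by choice, not by its annotation, and it made up 1.62 to 17.3 percentage points of the share in a library. Another 34 annotated ribosomal RNA entries reached 8.04 FPKM in a library at most. The share was 11.7% on average in NC, 33.1% in IVF and 33.9% in FET. FET exceeded NC by 22.2 percentage points (two-sided exact permutation test, p = 0.1, the smallest that 3 against 3 mice allow) and all 3 FET mice lay above all NC mice. With entries annotated as ribosomal RNA only, the share itself was smaller, 1.83% on average in NC, 5.03% in IVF and 4.68% in FET. Differences in points are therefore smaller on that count as well. FET then exceeded NC by 2.85 points (exact permutation p = 0.3), and FET mice 3 and 4 at 4.01% and 4.32% lay below NC mouse 1 at 4.40%. With all entries counted, IVF exceeded NC by 21.4 points (exact permutation p = 0.3), which was 7.02 without IVF mouse 2 and 3.20 with annotated entries only. FET differed from IVF by 0.822 points (exact permutation p = 1), which was 15.2 without IVF mouse 2 and -6.69 without IVF mouse 4.

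Hist1h2bc was lower in libraries with more ribosomal RNA. Its log2(FPKM + 1) had a Pearson r of -0.84 with the share over 9 mice (two-sided exact permutation p = 0.00441, adjusted over all genes p = 0.0693) and a Spearman rho of -0.87 (exact permutation p = 0.00451, adjusted p = 0.0446). Most genes did the same. Over the 6755 genes tested, r had a median of -0.58 and was negative in 94.3%. A negative r with an unadjusted exact p under 0.05 was found for 2 of the 6 histone genes, Hist1h2bc and Hist1h4i, and for 35.2% of all genes tested. Hist1h4i passed the filter through NC, the group with the lowest share, which favours a negative r, so this count supports nothing. By rho, 1 of 6 passed after adjustment, against 12.5% of all genes. FPKM are relative to the mapped fragments of a library, so the share and the levels are not independent measures. The cause of the negative relations was not tested.

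The relation of Hist1h2bc was also computed over fewer mice and on another scale. Without IVF mouse 2 and NC mouse 5, the 2 mice farthest from the median share, r was -0.60 (exact permutation p = 0.15) and rho -0.79 (exact permutation p = 0.048). Within the 7 mice whose sheet numbers lie together, r was -0.81 (exact permutation p = 0.0262). NC mice 5 and 6, which lie apart, are too few for a value of their own. When 1 mouse at a time was dropped, whichever it was, r lay between -0.88 and -0.66, weakest without IVF mouse 2 (exact permutation p = 0.0817), rho lay between -0.88 and -0.81, and its adjusted p lay between 0.0703 and 0.128. With 8 mice few genes passed at all, 0 in most of these settings and 168 at most, against 844 with 9 mice. After the rescaling to nuclear protein-coding genes r was -0.75 (exact permutation p = 0.0207, adjusted p = 0.761), rho was -0.50 (exact permutation p = 0.178), and the median r over all genes was -0.09. The rescaled r rested on a few mice: it was -0.25 (exact permutation p = 0.604), with a rho of -0.07, without the 2 farthest mice, and -0.67 (exact permutation p = 0.109), with a rho of -0.32, in the 7 mice together. On that scale, over 9 mice, 1 of 6 histone genes had a negative r with an unadjusted exact p under 0.05, against 3.52% of all genes.

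The other tested members also had negative coefficients on the deposited scale. Over 9 mice r was -0.65 for Hist1h1c (exact permutation p = 0.0539), -0.68 for Hist1h4i (exact permutation p = 0.0419), -0.54 for Hist1h2bg (exact permutation p = 0.135), -0.39 for Hist1h4h (exact permutation p = 0.3) and -0.14 for Hist2h2aa1 (exact permutation p = 0.569). The Spearman rho was -0.79, -0.80, -0.57, -0.49 and -0.48 in the same order, with exact permutation p of 0.0144, 0.0153, 0.121, 0.185 and 0.222. The 6 genes by 2 coefficients make 12 relations, and adjusted over all genes tested the p of these 10 lay between 0.0699 and 0.652. Without IVF mouse 2, r was -0.81 for Hist1h1c and -0.82 for Hist1h4i (exact permutation p = 0.0154 and 0.015), against -0.66 for Hist1h2bc, and both genes had passed the filter through NC. After the rescaling r lay between -0.40 and 0.04 for these 5 genes over 9 mice.

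**Figure D4:**
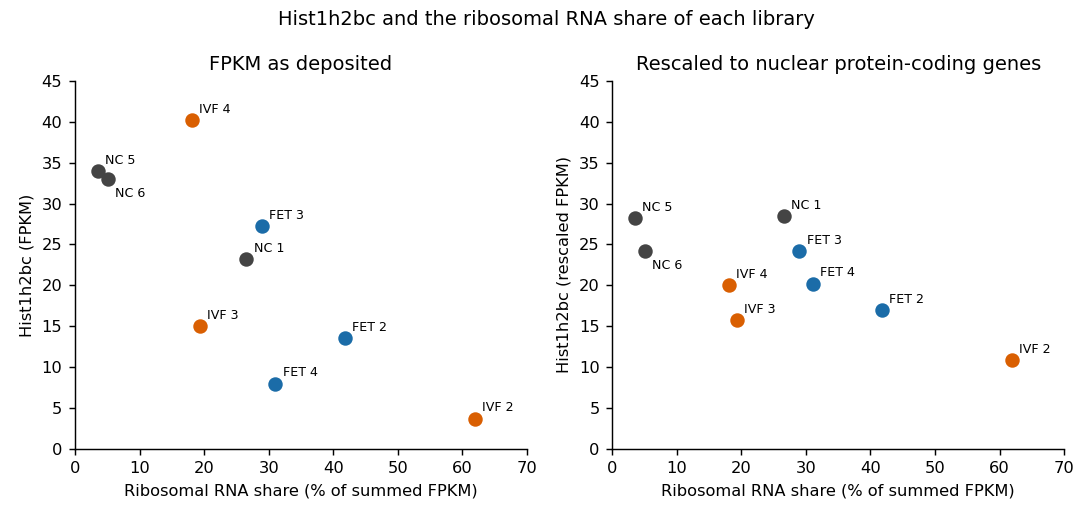
Hist1h2bc against the ribosomal RNA share (percent of summed FPKM) in each of the 9 libraries, as deposited on the left and rescaled to the nuclear protein-coding genes on the right, with points coloured and labelled by group and mouse. On the left the 9 values lie between 3.70 FPKM at a share of 61.9% (IVF mouse 2) and 40.3 at 18.1% (IVF mouse 4), with no steady fall between, and on the right the 9 values lie between 10.9 and 28.5.

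Summed over all 67 genes, the histone FPKM was 32.6, 50.7 and 49.1 in NC mice 1, 5 and 6, 9.05, 57.3 and 57.5 in IVF mice 2, 3 and 4, and 24.8, 51.0 and 12.7 in FET mice 2, 3 and 4. The lowest sums belonged to IVF mouse 2 and FET mouse 4, the 2 libraries in which nuclear protein-coding genes held the smallest part of the summed FPKM, 4.36% and 4.41%. Rescaled to those genes, the sums drew together, to 36.0 to 42.1 in NC, 26.5 to 60.2 in IVF and 31.2 to 45.3 in FET. The highest of them, IVF mouse 3, contained a rescaled 33.6 of Hist2h2aa1.

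Other RNAs without a tail were high where the histone genes were low in some libraries and not in others. The list of such RNAs held 13 genes of stable cytoplasmic and nuclear RNAs, of which 7 were above 0. Its summed FPKM was 2114, 239.9 and 304 in NC mice 1, 5 and 6, 4477, 1717 and 2484 in IVF mice 2, 3 and 4, and 3929, 2622 and 1794 in FET mice 2, 3 and 4. NC mice 5 and 6, lowest in ribosomal RNA, were also lowest here, and IVF mouse 2 was highest in both. Rn7s1 and Rn7s2, the RNA of the signal recognition particle, and Rn7sk, which restrains transcription elongation, were the most abundant. Rn7s1 lay at 105 FPKM in NC mouse 5 and 2278 in IVF mouse 2, while Hist1h2bc lay at 34.0 and 3.70 in the same libraries. In IVF mouse 4, however, Rn7s1 was at 1066 FPKM with Hist1h2bc at its highest, 40.3, and in FET mouse 4 Rn7s1 was at 828 with Hist1h2bc at 7.99. In the group comparisons 0 of the 5 tested RNAs passed (limma), with 2 under an unadjusted p of 0.05 in FET against NC, 3 in IVF against NC and 0 in FET against IVF, where 12%, 4.07% and 4.01% of all genes were. All 5 were higher in FET and in IVF than in NC, with median log2 differences of 1.47 and 2.39, and 3 were lower in FET than in IVF. Rn7s1 and Rn7s2, both counted against NC, are entries for the same RNA, so these counts are not of separate RNAs.

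Genes that act with or beside the clustered histones gave no call either. Of 19 replacement histones, 8 were tested and 0 passed in any comparison (limma, 0 under an unadjusted p of 0.05). H2afj, an H2A variant, had the highest mean of them, 27.2 FPKM, followed by H3f3a, which encodes H3.3, at 12.3, and the linker histone H1f0 at 12.0, so on this scale per length Hist1h2bc at 22.0 lay between H2afj and H3f3a. The sum of the list ranged from 62.4 to 80.6 FPKM in NC, 13.8 to 152 in IVF and 39.4 to 83.1 in FET. Of 23 measured genes for the transcription, processing and decay of histone mRNA, 13 were tested and 0 passed. Snrpf and Snrpg, small proteins of spliceosomal particles, were under 0.05 unadjusted in FET against NC, with differences of -1.65 and -1.58 (standard errors 0.71 and 0.65, limma adjusted p = 0.341 and 0.317). These were 2 of the 13 tested, where 12% of all genes were under 0.05. After the rescaling to nuclear protein-coding genes it was 1 of 13, against 16.7% of all genes. Under median-ratio scaling it was also 1 of 13, against 17.2%. Upf1, an RNA helicase needed for the decay of histone mRNA, and Srrt, of the nuclear cap-binding pathway, had means of 5.66 and 5.20 FPKM, and Slbp itself a mean of 0.504.

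Of 19 histone chaperones, 6 were tested and 0 passed (limma, 0 under 0.05 unadjusted). Npm1, Set and Nap1l4 had the highest means, at 5.55, 3.18 and 3.03 FPKM. The S phase and mitosis list was low in all livers. Only 4 of its 30 genes reached a mean of 1 FPKM, 0 passed (limma, 0 under 0.05 unadjusted), and its sum ranged from 7.90 to 19.0 FPKM in NC, 3.42 to 16.2 in IVF and 1.22 to 13.6 in FET. Tk1 and Pcna, which serve nucleotide supply and DNA copying, were among its highest genes, with means of 1.70 and 1.25.

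**Figure D5:**
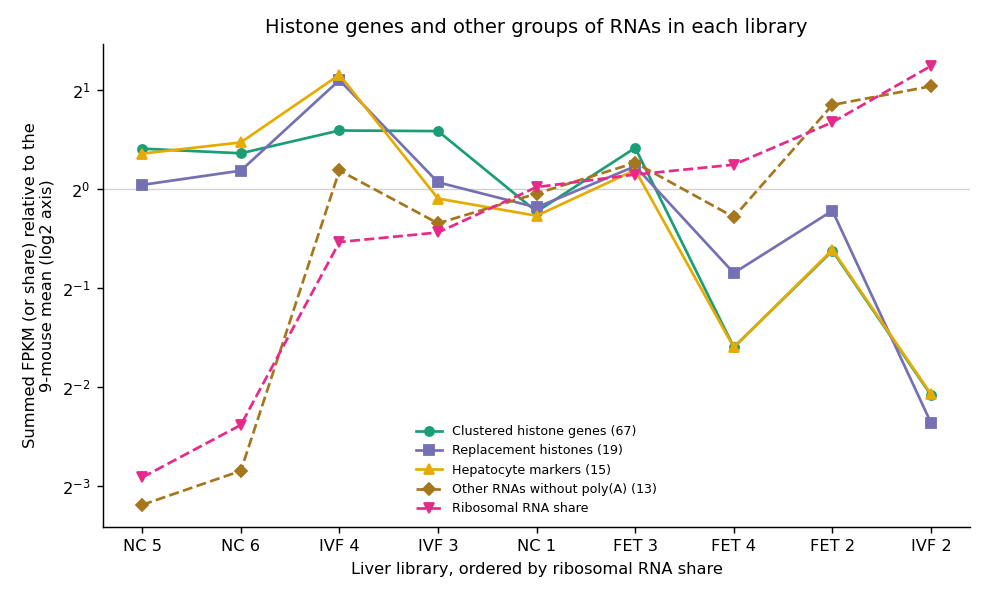
Summed FPKM of the 67 clustered histone genes, of 3 other lists and the ribosomal RNA share in each library, each divided by its mean over the 9 mice, on a log2 axis, with libraries ordered by ribosomal RNA share. The histone genes, replacement histones and hepatocyte markers are lowest in IVF mouse 2, where the share (61.9%) and the other RNAs without poly(A) (4477 FPKM) are highest.

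The tissue and its other cells were read from marker lists. All 15 hepatocyte markers were above 0, led by Apoa2, Alb and Apoa1, and their sum ran from 6452 FPKM in IVF mouse 2 to 60192 in IVF mouse 4, the libraries with the lowest and the highest Hist1h2bc. All 16 Kupffer cell and leukocyte markers were above 0, led by Clec4f, Cd74 and Lyz2, with sums of 32.7 to 46.9 FPKM in NC, 7.22 to 87.7 in IVF and 16.7 to 111 in FET. Erythroid markers, 8 of 9 above 0 and led by Hba-a1, Hbb-bs and Hba-a2, summed to 337 to 849.9 FPKM in NC, 78.0 to 389 in IVF and 177 to 591 in FET. Endothelial and stellate markers, led by Dcn, Clec4g and Col3a1, were all 13 above 0 with sums of 7.57 to 31.5 over all mice, and of 7 cholangiocyte markers, with Spp1 and Krt19 among the highest, 6 were above 0 with sums of 2.02 to 22.2. The markers tested were 15 of hepatocytes, 7 of Kupffer cells and leukocytes, 5 erythroid, 5 endothelial and stellate and 3 of cholangiocytes. No marker passed in any comparison (limma). Apob was under 0.05 unadjusted in FET against IVF, as were 4.01% of all genes. Spp1 was so in IVF against NC, as were 4.07% of all genes. In whole liver, fewer cells of a type and less RNA per cell cannot be told apart, and the part of cell makeup in the histone levels was not tested.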

How the data were processed

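Liver RNA of 9 mice was analysed, and the group and number of each mouse were taken from the labels. According to the study's methods, cDNA from total RNA was sequenced and the reads were trimmed and mapped. The submitters' processing notes name FastQC 0.11.5, STAR 2.5.3a, StringTie 1.3.1c and DESeq2 1.16.1, without their order. The build and annotation are not given in the sources used here. The authors deposited FPKM, with no counts and no further scaling stated, so fragment numbers here are estimates from the steps of low values, of which 37.3% to 44.9% per library lay within 2% of a step of up to 8 fragments. Symbols, positions and transcripts are from GENCODE vM21 (GRCm38, 55154 of 55335 identifiers matched) and promoters from RefSeq (GRCm38.p6).

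The 6755 genes whose FPKM averaged 1 or more were tested on log2(FPKM + 1) with limma 3.58.1 under R 4.3.3, with the 3 groups in 1 model, a trend on the mean, two-sided tests and Benjamini-Hochberg adjustment over all genes tested, with a threshold of 0.05. The procedure was tested on simulated data. Ribosomal RNA shares were compared by exact permutation over mice. Relations to the share were computed for all genes tested in Python 3.11.15 with numpy 2.4.6 over all pairings, and adjusted over all of them rather than over the 6 members as first planned. The genes and lists were chosen with earlier results of these data known. Genes named are those with a mean of at least 1 FPKM, those above 0 in 5 or more mice and the 3 highest of each list, except for some that are not reported here; the 34 lesser ribosomal RNA entries are given by count, and the names of genes that overlap a member or are high in 1 library were added with their values in view. Alternatives tried were a smaller pseudocount (0.1), no filter, 2 other scalings, a fit of only the groups compared, a replicate block, leaving out mice, ribosomal entries annotated as such only and a share of fragments.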

Additional observations from a re-analysis of the deposited data

How the results depend on the processing

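Of the 6 tested histone genes, 0 passed (limma) in each comparison under every alternative run, and 0 passed for the ribosomal RNA relation by Pearson r. Without the filter on low values, 58 histone genes were tested and 0 passed, with 2, 5 and 5 under an unadjusted p of 0.05 in FET against NC, IVF against NC and FET against IVF, where 9.55%, 5.76% and 3.02% of 27411 genes were. IVF and FET mice share the numbers 2, 3 and 4. Residuals of same-numbered mice had a mean correlation of -0.12 (from -0.26 to 0.02), against 0.06 for different numbers. So few pairs cannot show whether the numbers pair the mice. With the number as a replicate block, 0 of 6 histone genes passed between FET and IVF, 2 were under 0.05 unadjusted (Hist1h4i, and Hist2h2aa1, which passed the filter through IVF mouse 3 alone, so the count is not read against the 3.61% of all genes), and 2 genes of all 6755 passed in place of 6.

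When single mice were dropped, the difference of the ribosomal RNA share between FET and IVF ranged from -6.69 to 15.2 percentage points. With entries annotated as ribosomal RNA only, which make up a smaller share, it was -0.351. Leaving out 1 mouse at a time gave -0.63 to 0.34 for Hist1h2bg and -0.76 to 0.22 for Hist1h4h in FET against NC, -0.0041 to 2.52 for Hist2h2aa1 and -0.57 to 0.44 for Hist1h4h in IVF against NC, and -0.73 to 0.83 for Hist1h2bc and -0.68 to 0.30 for Hist1h4h in FET against IVF. Hist1h4h turned to 0.073 and 0.15 (FET and IVF against NC) when rescaled to nuclear protein-coding genes, to 0.040 and 0.22 under median-ratio scaling, and to 0.71 and 0.93 without NC mice 5 and 6. Without these 2 mice the IVF and NC difference was 0.66 for Hist1h2bg and 0.17 for Hist1h1c, and FET against NC was 1.27 for Hist1h2bg and -0.21 for Hist1h1c. The relation of Hist1h4h to the share had an r of 0.039 after rescaling. In alternatives chosen after seeing the data, as was leaving out mice from the family shares, rescaled values gave an r and rho of 0.31 and 0.64 for Hist1h2bg, 0.35 and 0.37 for Hist1h4h and 0.23 and 0.018 for Hist1h1c in the 7 mice together, and 0.21 and 0.32 for Hist1h2bg without the 2 farthest mice. The causes were not tested.

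The depth limits the precision of each value: the 67 genes together had an estimated 256 to 754 fragments in an NC library, 80.2 to 245 in an IVF library and 37.2 to 153 in a FET library, and the part of depth in the differences was not tested.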
